A study of Mus musculus with 8 samples.

Results

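The 6 genes described here encode proteins that mammalian airways release against bacteria: *Lyz1* and *Lyz2*, *Pglyrp1*, *Reg3g*, *Bpifa1* and *Pigr*. They were chosen by name from 25965 genes, by no rule on their values but with earlier results of these data known. All 6 were found. Their mRNA was read in total RNA of whole mouse lung from 2 genotypes and 2 stages, before birth at E18.5 (embryonic day) and after birth at P1.5 (postnatal day), with 2 libraries in each of 4 groups and 8 in all. *Wfdc2* +/+ lungs came from wild-type littermates. *Wfdc2* GFP/GFP lungs carried on both alleles a targeted *Wfdc2* that had lost part of its first exon and all of its next exon to an IRES-GFP cassette, in every cell and from conception. The line was made in TT2 embryonic stem cells, and its selection cassette was removed by crossing to CAG-Cre mice. The labels do not say how many animals stand behind a library, so p-values measure the spread between these libraries only. In whole lung, fewer cells of a type and less RNA per cell cannot be told apart.

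Secreted defence proteins stand between inhaled bacteria and the epithelium. Lysozymes cut the peptidoglycan of bacterial walls. *Lyz2* is best known from macrophages and type II alveolar epithelial cells (AECIIs), and *Lyz1* from Paneth cells of the intestine. PGLYRP1 binds peptidoglycan and is stored in neutrophil granules. REG3G is a C-type lectin that binds peptidoglycan and kills Gram-positive bacteria at the gut surface, and its gene is induced in epithelium by IL-22 through STAT3. BPIFA1, also called SPLUNC1, is a major secretion of the nose and large airways. PIGR kills nothing itself but carries dimeric IgA and pentameric IgM across epithelium, and its shed part travels on as secretory component.

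*Lyz1* and *Lyz2* lie side by side on the minus strand of chromosome 10 (mm10), at chr10:117287796-117292868 and chr10:117277334-117282274. *Reg3g* lies on the minus strand at chr6:78466269-78468872. *Pglyrp1*, *Bpifa1* and *Pigr* lie on the plus strand at chr7:18884690-18890438, chr2:154142880-154149219 and chr1:130826684-130852249. All 6 are protein-coding in GENCODE M21, and no other annotated gene overlaps them. Each value below counts reads on the whole gene, since exons and introns cannot be separated in it. The lysozymes are close copies. Their coding sequences are both 447 bases long and differ at 22 positions, which is an identity of 95.1%. The reads had been cut to 36 bases, and of the 36-base windows of the *Lyz1* transcript 28.5% also occur in that of *Lyz2*, while 27.3% of the *Lyz2* windows occur in *Lyz1*. How the counting treated reads that map to both is not given in the sources used here, so the division of reads between the lysozymes is uncertain. For *Pglyrp1* 5.39% of windows occur in another gene, for *Pigr* 0.611%, and for *Bpifa1* and *Reg3g* none of 1542 and 2174 do.

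The sequences just upstream of the lysozyme genes are shown because these genes moved together across the libraries. They are the 250 bases before the RefSeq start (GRCm38.p6, minus strand, written 5′ to 3′ along the gene), at chr10:117292869-117293118 for *Lyz1* and chr10:117282273-117282522 for *Lyz2*. Capitals mark their longest shared run, the 50 bases next to the RefSeq start. In GENCODE M21 *Lyz2* reaches chr10:117282321, so most of its marked run lies inside that annotated gene. In a global alignment 200 of 252 positions were identical (79.4%).
Lyz1: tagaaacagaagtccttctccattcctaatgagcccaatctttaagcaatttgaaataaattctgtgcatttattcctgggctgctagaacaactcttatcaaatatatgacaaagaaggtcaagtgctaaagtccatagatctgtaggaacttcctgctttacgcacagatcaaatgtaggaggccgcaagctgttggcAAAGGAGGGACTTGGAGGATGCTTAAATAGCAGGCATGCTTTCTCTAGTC
Lyz2: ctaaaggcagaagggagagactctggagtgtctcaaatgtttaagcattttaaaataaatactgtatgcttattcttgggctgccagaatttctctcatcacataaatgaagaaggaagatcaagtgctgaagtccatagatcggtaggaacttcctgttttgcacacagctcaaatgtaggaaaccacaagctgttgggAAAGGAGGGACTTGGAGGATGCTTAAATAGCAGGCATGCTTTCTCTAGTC

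The same windows of *Reg3g* and *Bpifa1* are shown because among the 6 these genes differed most between the stages in wild-type lung, in opposite directions. They lie at chr6:78468875-78469124 on the minus strand and at chr2:154142630-154142879 on the plus strand. In *Reg3g* capitals mark a match to the NF-kB consensus, and in *Bpifa1* the TATA box letters.
Reg3g: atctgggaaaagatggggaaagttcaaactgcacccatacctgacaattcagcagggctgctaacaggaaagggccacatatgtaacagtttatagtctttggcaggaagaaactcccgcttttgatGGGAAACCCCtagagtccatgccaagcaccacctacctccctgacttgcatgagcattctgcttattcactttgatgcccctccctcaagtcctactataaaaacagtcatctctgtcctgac
Bpifa1: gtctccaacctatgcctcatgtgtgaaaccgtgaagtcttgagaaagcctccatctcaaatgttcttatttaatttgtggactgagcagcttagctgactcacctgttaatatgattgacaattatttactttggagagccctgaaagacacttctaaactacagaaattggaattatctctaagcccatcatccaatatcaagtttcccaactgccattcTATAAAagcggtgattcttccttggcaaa

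Of 5 motifs searched on both strands of these windows, TATAAA is in 12.4% of 32841 windows over all genes, the NF-kB consensus in 3.9%, TTCNNNGAA (a STAT site) in 7.02%, AGGAAGT (an ETS site) in 7.69% and CAAGTG (an NKX2 core) in 11.6%. The NF-kB match of *Reg3g* lies 123 to 114 bases before the start and reads as a match on either strand, and that gene holds TATAAA 27 to 22 bases before the start and again, on the other strand, 161 to 156 bases before it. *Bpifa1* holds TATAAA 29 to 24 bases before the start. Both lysozyme genes hold AGGAAGT on the other strand 100 to 94 bases before the start and CAAGTG 129 to 124 bases before it. *Pglyrp1* holds an NF-kB match on the other strand, 93 to 84 bases before the start, and *Pigr* holds none of the 5 motifs. No match overlapped that of another motif. A match is a run of letters and says nothing of binding.

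The libraries held 19457647 to 37209333 reads, and a count of 3, used here as the detection limit, equals 0.0806 to 0.154 RPM (a gene's reads scaled by the library's total). *Wfdc2* had 8038 to 32845 reads in +/+ libraries and 0 to 12 in GFP/GFP libraries. All 11 AECII markers had reads in every library. In each group replicate 1 carried *Xist* and replicate 2 carried *Ddx3y*, so that the replicate number goes with sex. A few libraries stood apart. E18.5 GFP/GFP replicate 1 held the lowest sums of AECII markers (10340 RPM, against 20642 to 25634 RPM in the other E18.5 libraries) and of 10 club cell markers (1257 RPM, against 3715 to 4729 RPM). Its most abundant gene was *Eef1a1*, where that of every other library was *Sftpc*. Its median log2 RPKM over the tested genes was 0.02, against −0.96 to −0.22 elsewhere. It held 2445 RPM of *Xist*, against 177.9 to 424.1 RPM in the other replicate 1 libraries. P1.5 +/+ replicate 1 held the highest sums of club cell and neutrophil markers of any library, 24083 and 2173 RPM. P1.5 +/+ replicate 2 carried 120.6 RPM of oesophagus and thymus markers, against 8.29 to 15.4 RPM elsewhere, with *Krt13* at 56.1 RPM and at most 2.62 RPM elsewhere, and 1030 reads of the liver gene *Alb*.

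**Figure D1:**
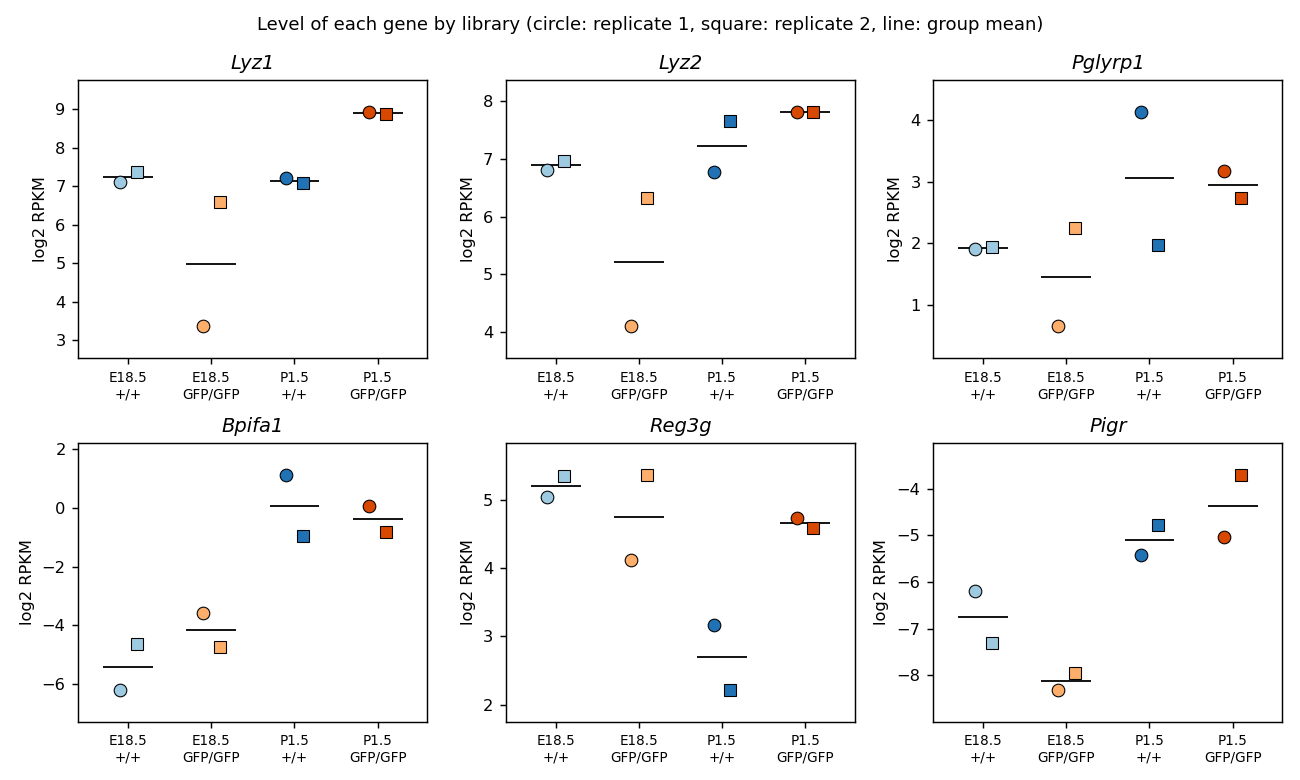
Level of each of the 6 genes in log2 RPKM (vertical axis, a separate scale per panel) in each library, grouped by stage and genotype; circles are replicate 1, squares replicate 2, and lines group means. *Lyz1* at P1.5 sits near 8.9 in both GFP/GFP libraries and near 7.1 in both +/+ libraries, while E18.5 GFP/GFP replicate 1 lies far below its partner in *Lyz1*, *Lyz2* and *Pglyrp1*.

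The levels of the 6 genes spanned over 4 orders of magnitude. They were compared per kilobase of merged exons. That scales by exon length, while any reads on introns stay in the count. E18.5 +/+ lungs held 610.8 RPM per kilobase of *Lyz1*, 463.9 of *Lyz2*, 45.5 of *Reg3g*, 15.5 of *Pglyrp1*, 0.111 of *Bpifa1* and 0.0632 of *Pigr* (means, n = 2). In this order only *Bpifa1* and *Pigr* had libraries that overlapped. In P1.5 +/+ lungs the order was *Lyz2* with 609.8, *Lyz1* with 568.9, *Pglyrp1* with 43.9, *Reg3g* with 8.38, *Bpifa1* with 5.52 and *Pigr* with 0.189 RPM per kilobase. There the lysozymes overlapped, as did *Reg3g* and *Bpifa1*. In P1.5 GFP/GFP lungs *Lyz1* reached 1925 and *Lyz2* 878.4 RPM per kilobase, *Pglyrp1* stood at 31.9 and *Reg3g* at 31.2 with overlapping libraries, and *Bpifa1* at 3.34 was above *Pigr* at 0.339. The deposited log2 RPKM divide by the whole gene span with introns and put *Reg3g* above *Pglyrp1* in that group, with 4.66 ± 0.11 and 2.95 ± 0.31 (SD, n = 2). In E18.5 GFP/GFP lungs the lysozymes ran from 41.3 to 386.5 RPM per kilobase and overlapped each other, and *Lyz1* also overlapped *Reg3g* (21.4 to 50.5).

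Differences were tested on log2 RPKM with limma, in a single fit to the 15627 genes whose mean reached 0.05 RPKM, and adjusted over all of them. Of the 6 genes 5 entered the fit. *Pigr* did not pass the filter and is given by its reads. Between genotypes at P1.5, 0 of the 5 genes were called, meaning that limma put their adjusted p under 0.05, where 0.0128% of all genes were. For 1 of the 5 the p before adjustment was under 0.05, as for 1710 of all 15627 genes. In 3 of the 6, *Lyz1*, *Lyz2* and *Reg3g*, both GFP/GFP libraries lay above both +/+ libraries, where 39.4% of all genes tested had groups that did not overlap. At E18.5, 0 of the 5 were called, where 0.0192% of genes were, and 2 had a p under 0.05 before adjustment, as had 683 of all genes. *Lyz1*, *Lyz2* and *Pigr* were lower in both GFP/GFP libraries, where 36% of genes did not overlap. The difference between these genotype effects was called in 0 of the 5 genes and in 0.0% of all genes, and 3 of the 5 had a p under 0.05 before adjustment, as had 1599 of all genes. From E18.5 to P1.5 in +/+ lungs 0 of the 5 were called, where 0.0576% of genes were, and 4 of the 6 did not overlap, against 55.6% of genes. In GFP/GFP lungs 2 of the 5, *Lyz1* and *Bpifa1*, were called, where 4.55% of genes were, and 5 of the 6 did not overlap, against 67.2% of genes. These stage comparisons share their libraries with the genotype comparisons, so the values of each are given side by side.

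**Figure D2:**
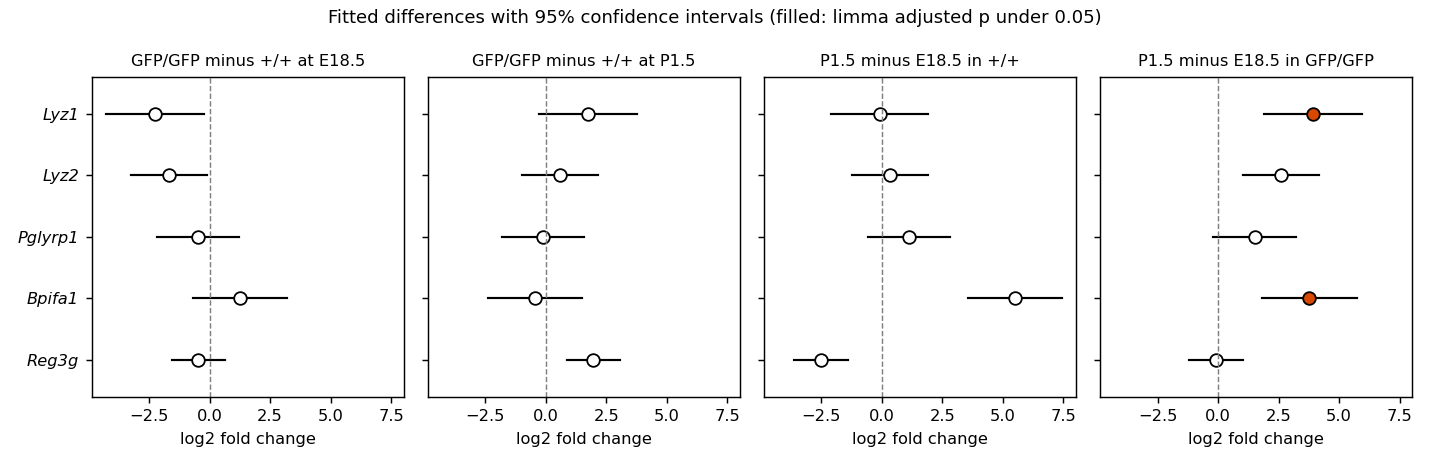
Fitted log2 fold change (horizontal axis) of the 5 tested genes in 4 comparisons; bars are 95% confidence intervals from limma and filled points have an adjusted p under 0.05. Filled points are *Lyz1* and *Bpifa1* in the stage comparison of GFP/GFP lungs, where both adjusted p are close to the threshold, and the interval of *Reg3g* lies above 0 for genotype at P1.5 and below 0 for stage in +/+ lungs.

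*Lyz1* was the most abundant of the 6 in P1.5 GFP/GFP lungs. It stood at 703.8 and 838.9 RPM in E18.5 +/+ lungs (replicates 1 and 2), 52.2 and 488.1 RPM in E18.5 GFP/GFP, 750.7 and 686.5 RPM in P1.5 +/+, and 2474 and 2390 RPM in P1.5 GFP/GFP. Both P1.5 GFP/GFP libraries were above every other library, and E18.5 GFP/GFP replicate 1 was below every other. At P1.5 the log2 RPKM was 7.14 ± 0.09 (SD, n = 2) in +/+ and 8.90 ± 0.04 (SD, n = 2) in GFP/GFP, a difference of 1.76 (standard error, SE, of 0.87, 95% interval −0.26 to 3.78) or 3.39-fold. The limma adjusted p was 0.512. The fit pools the spread of all 4 groups, and in *Lyz1* most of it came from E18.5 GFP/GFP (SD 2.28, against 0.18 or less in the other groups). Within replicate 1 the P1.5 difference was 1.72 and within replicate 2 it was 1.80.

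At E18.5 *Lyz1* differed in the other direction, from 7.24 ± 0.18 in +/+ to 4.98 ± 2.28 in GFP/GFP (SD, n = 2), a log2 fold change of −2.27 (SE 0.87, limma adjusted p = 1.0). Without E18.5 GFP/GFP replicate 1 it was −0.65. The P1.5 effect minus the E18.5 effect was 4.03 (SE 1.23, 95% interval 1.17 to 6.88, limma adjusted p = 0.337). It was 2.41 without that library. Without E18.5 GFP/GFP replicate 2 it was 5.64 and passed the threshold (limma adjusted p = 0.0321). From E18.5 to P1.5 *Lyz1* moved by −0.10 in +/+ lungs (SE 0.87, 95% interval −2.12 to 1.92) and rose by 3.93 in GFP/GFP lungs (SE 0.87, limma adjusted p = 0.0499). That call lay at the threshold and was lost when E18.5 GFP/GFP replicate 1 was left out (log2 fold change 2.32, limma adjusted p = 0.130) and when either P1.5 GFP/GFP library was (adjusted p = 0.214 and 0.157). It was also lost in a fit with the replicate number, which goes with sex, as a block (limma adjusted p = 0.0642).

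*Lyz2*, the macrophage and AECII lysozyme, was likewise highest in P1.5 GFP/GFP and lowest in E18.5 GFP/GFP, with smaller genotype differences than *Lyz1*. Its levels were 553.9 and 620.8 RPM in E18.5 +/+, 84.9 and 397.1 RPM in E18.5 GFP/GFP, 541.7 and 1002 RPM in P1.5 +/+, and 1115 and 1110 RPM in P1.5 GFP/GFP. The P1.5 GFP/GFP libraries were the highest, though P1.5 +/+ replicate 2, the library high in oesophagus and thymus markers and in *Alb*, came close to them. The log2 fold change between genotypes was 0.59 at P1.5 (SE 0.67, 95% interval −0.97 to 2.16, limma adjusted p = 0.788). Without P1.5 +/+ replicate 1 it was 0.15, and without replicate 2 it was 1.04. At E18.5 the log2 fold change was −1.68 (SE 0.67, limma adjusted p = 1.0), or −0.56 without GFP/GFP replicate 1. The difference between these effects was 2.27 (SE 0.95, limma adjusted p = 0.475). From E18.5 to P1.5 the change was 0.33 in +/+ lungs (SE 0.67) and 2.60 in GFP/GFP lungs (SE 0.67, limma adjusted p = 0.0582). Under the alternatives other than leaving out 1 library, the limma adjusted p of the GFP/GFP change ran from 0.0244 to 0.103. The lowest passed the threshold.

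*Lalba*, the milk protein gene of the lysozyme family and its only other member to pass the filter, had 20, 18, 4 and 5 reads at E18.5 and 4, 2, 19 and 9 at P1.5 (+/+ first). The GFP/GFP libraries were the lower at E18.5 and the higher at P1.5, and *Lalba* was called in 0 of the 5 comparisons.

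The balance of the lysozymes differed between libraries. *Lyz1* took 56.0% and 57.5% of the reads on both genes in E18.5 +/+, 38.1% and 55.1% in E18.5 GFP/GFP, 58.1% and 40.6% in P1.5 +/+, and 68.9% and 68.3% in P1.5 GFP/GFP. Both P1.5 GFP/GFP libraries lay above the other 6. The 95% Wilson intervals of these shares were 68.0% or higher in P1.5 GFP/GFP and 58.7% or lower elsewhere, for counting error only. With 2 libraries in each group the smallest two-sided p that exact permutation allows is 0.333, and no test was made. E18.5 GFP/GFP replicate 1 and P1.5 +/+ replicate 2 were the libraries with more *Lyz2* than *Lyz1*. Since some windows occur in both genes, these shares can also hold reads of the other gene.

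**Figure D3:**
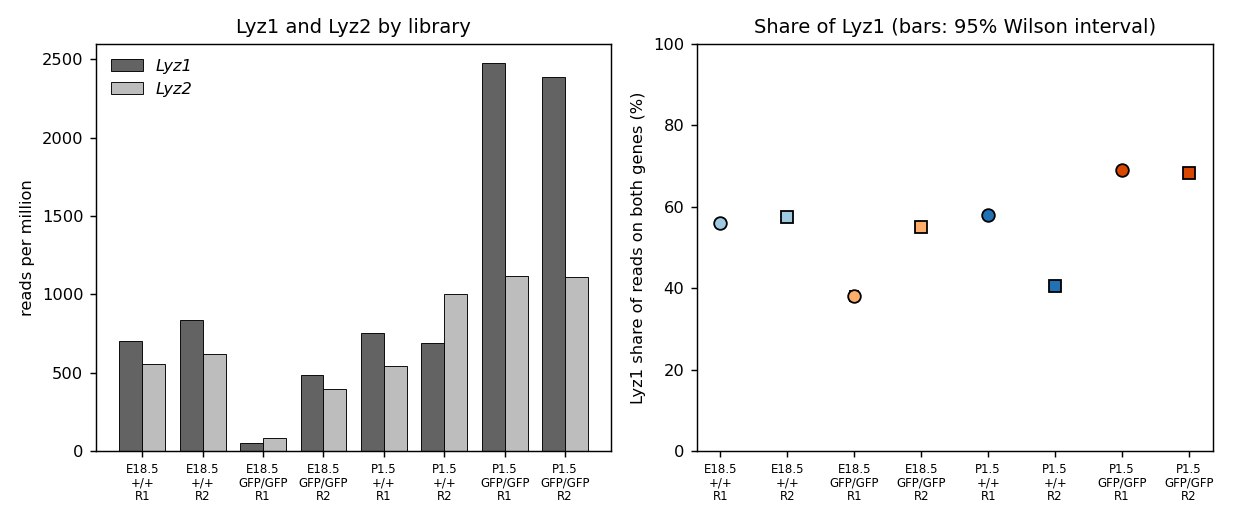
Left, *Lyz1* (dark) and *Lyz2* (light) in RPM for each of the 8 libraries; right, the share of *Lyz1* among reads on both genes in percent, with 95% Wilson intervals that are mostly smaller than the points. *Lyz1* is over 2-fold above *Lyz2* in both P1.5 GFP/GFP libraries (68.9% and 68.3%), and below it in E18.5 GFP/GFP replicate 1 and P1.5 +/+ replicate 2.

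Cell markers moved with the lysozymes in part. The AECII sum ran from 10340 to 25634 RPM at E18.5 and was 58071 and 30876 RPM in P1.5 +/+ and 69277 and 50983 RPM in P1.5 GFP/GFP. *Sftpc* made up most of it in every library, with 53718 and 23977 RPM in P1.5 +/+ and 62335 and 44119 RPM in P1.5 GFP/GFP. From E18.5 to P1.5 in +/+ lungs 8 of the 11 markers were below 0, with a median of −0.36 beside −0.15 over all genes. In GFP/GFP lungs 8 of the 11 were above 0, with a median of 0.34 beside −0.46. Relative to the mean log2 RPKM of the 11 AECII markers in the same library, *Lyz1* stood at 2.51 and 2.01 in P1.5 +/+ and at 3.67 and 3.66 in P1.5 GFP/GFP. On the same scale E18.5 GFP/GFP stood at −0.91 and 1.41, against 2.11 and 2.15 in E18.5 +/+. *Lyz2* stood at 2.08 and 2.59 in P1.5 +/+ and at 2.56 and 2.59 in P1.5 GFP/GFP. With all genes expressed relative to these markers, the P1.5 fold change of *Lyz2* went from 0.59 to 0.24 and that of *Lyz1* from 1.76 to 1.41. The 20 macrophage and monocyte markers, all with reads in every library, summed to 252.9 RPM in E18.5 GFP/GFP replicate 1 and to 402.9 to 436.7 RPM in the other E18.5 libraries. At P1.5 they summed to 588.7 and 687.3 RPM in +/+ and to 749.5 and 923.6 RPM in GFP/GFP. Of the 20, 16 were higher in GFP/GFP at P1.5 and 0 were called, with a median log2 fold change of 0.40 beside −0.20 over all genes. The part of macrophage number in the lysozyme levels was not tested.

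*Pglyrp1*, the neutrophil granule protein, did not separate the genotypes. It stood at 21.6 and 22.0 RPM in E18.5 +/+, 9.0 and 27.1 RPM in E18.5 GFP/GFP, 101.0 and 22.6 RPM in P1.5 +/+, and 51.6 and 38.2 RPM in P1.5 GFP/GFP. The genotypes overlapped at both stages, and P1.5 +/+ replicate 1 held more than any other library. The log2 fold change between genotypes was −0.11 at P1.5 (SE 0.73, 95% interval −1.81 to 1.60, limma adjusted p = 0.965). It was 0.98 without P1.5 +/+ replicate 1 and −1.19 without P1.5 +/+ replicate 2, so its direction depended on which of these libraries was used. With median centring it was 0.095. At E18.5 it was −0.48 (SE 0.73) and, without GFP/GFP replicate 1, 0.31. Both P1.5 libraries of each genotype were above both E18.5 libraries, with log2 fold changes of 1.13 in +/+ (SE 0.73, limma adjusted p = 0.451) and 1.51 in GFP/GFP (SE 0.73, limma adjusted p = 0.177). Without P1.5 +/+ replicate 1, the change in +/+ was 0.05.

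Markers of neutrophils, as a sum, ranked the P1.5 libraries in the same order as *Pglyrp1*. So did the sums of club cell and of upper airway secretory markers. *Msln* made up most of the upper airway sum at P1.5. It held 1858 of 2743 and 770.9 of 968.4 RPM in +/+, and 1108 of 1693 and 975.2 of 1348 RPM in GFP/GFP. At E18.5 GFP/GFP replicate 2 held the most *Pglyrp1* with 79.3 RPM of neutrophil markers, against 114.8 and 112.0 RPM in +/+. Between the +/+ replicate 2 libraries the neutrophil sum was 112.0 RPM at E18.5 and 756.5 RPM at P1.5, with *Pglyrp1* at 22.0 and 22.6 RPM. The 17 markers, among them *S100a8*, *S100a9*, *Camp* and *Ngp*, summed to 67.3 to 114.8 RPM at E18.5, and at P1.5 to 2173 and 756.5 RPM in +/+ and 1678 and 1094 RPM in GFP/GFP. In +/+ lungs all 17 had a fitted change above 0, and all but *Elane*, with 1 and 0 reads at E18.5 and 9 and 0 at P1.5, had more RPM in both P1.5 libraries than in either E18.5 library. Over all genes 55.6% did not overlap in that comparison, in either direction. *Ngp* was called in +/+ (log2 fold change 3.19, SE 0.36, limma adjusted p = 0.0478). In GFP/GFP lungs 10 of 17 were called, where 4.55% of all genes were, with a median change of 3.68 beside −0.46 over all genes. Those calls fell to 0 without E18.5 GFP/GFP replicate 1 or without either P1.5 GFP/GFP library. The defining marker *Ly6g* stood at 0 to 0.976 RPM. The part of neutrophils in *Pglyrp1* was not tested. The other peptidoglycan recognition proteins, *Pglyrp2*, *Pglyrp3* and *Pglyrp4*, were at or near 0, with 0.360 RPM at most, and none passed the filter.

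*Reg3g*, the secreted lectin, was lowest in wild-type lung after birth. It stood at 86.0 and 106.5 RPM in E18.5 +/+, 45.3 and 106.8 RPM in E18.5 GFP/GFP, 23.3 and 12.1 RPM in P1.5 +/+, and 69.5 and 62.4 RPM in P1.5 GFP/GFP. The P1.5 +/+ libraries were the lowest of all 8, and the P1.5 GFP/GFP libraries lay within the range of E18.5 GFP/GFP. At P1.5 the log2 RPKM was 2.69 ± 0.67 in +/+ and 4.66 ± 0.11 in GFP/GFP (SD, n = 2), a difference of 1.97 (SE 0.48, 95% interval 0.86 to 3.08) or 3.92-fold. Its unadjusted p in limma's fit was 0.00353 and its limma adjusted p was 0.285. GFP/GFP was higher within replicate 1 by 1.58 and within replicate 2 by 2.36. Leaving out P1.5 +/+ replicate 1 gave 2.44, and leaving out replicate 2, the library high in oesophagus and thymus markers, gave 1.5.

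At E18.5 the genotypes overlapped in *Reg3g*, with a log2 fold change of −0.46 (SE 0.48, 95% interval −1.57 to 0.65). Without GFP/GFP replicate 1 it was 0.16. The difference of the P1.5 and E18.5 effects was 2.43 (SE 0.68, 95% interval 0.86 to 4.0, limma adjusted p = 0.291). From E18.5 to P1.5 *Reg3g* changed by −2.51 in +/+ lungs (SE 0.48, limma adjusted p = 0.110), and both P1.5 libraries were below both E18.5 libraries. Without P1.5 +/+ replicate 2 the change was −2.04 and passed the threshold (limma adjusted p = 0.0458), and without replicate 1 it was −2.98 (limma adjusted p = 0.105). In GFP/GFP lungs the change was −0.08 (SE 0.48, 95% interval −1.19 to 1.03), or 0.60 with median centring. *Reg3g* was the only gene of its family with more than a trace of reads: *Reg1*, *Reg2*, *Reg3a*, *Reg3b*, *Reg3d* and *Reg4* had 1 read or none in every library, which allows up to 0.154 RPM.

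The pathway that induces *Reg3g* and *Pigr* in epithelium was read from 24 cytokines, receptors and signal carriers, of which 18 were tested. Between genotypes at P1.5, 15 of the 18 had a fold change above 0 and 0 were called, with a median of 0.71 beside −0.20 over all genes. *Il22* had no reads in any library and *Il17a* had 1 read in 2 of them. *Il6*, which signals through STAT3, had the largest difference at 2.86 (SE 0.87, limma adjusted p = 0.338), with 0.276 and 0.308 RPM in +/+ and 0.820 and 5.50 RPM in GFP/GFP. *Il1b* followed with 2.44 (SE 1.22, limma adjusted p = 0.515) and *Tnf* with 2.29 (SE 1.29, limma adjusted p = 0.569). All 3 were highest in P1.5 GFP/GFP replicate 2, and *Reg3g* stood at 69.5 and 62.4 RPM in the libraries of that group. *Il6ra*, a receptor chain, went the other way at P1.5, with 17.8 and 11.8 RPM in +/+ and 4.75 and 2.97 RPM in GFP/GFP. The part of these cytokines and receptors in the level of *Reg3g* was not tested. From E18.5 to P1.5 in GFP/GFP lungs *Il1b* rose by 6.88 (SE 1.22, limma adjusted p = 0.0390), and *Il6ra* fell by 2.51 (SE 0.55, limma adjusted p = 0.0491). In the other 3 comparisons 0 of the 18 were called.

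*Bpifa1*, the large-airway secretion, was close to absent before birth and present after it in both genotypes. It had 3 and 8 reads in E18.5 +/+, 20 and 7 in E18.5 GFP/GFP, 299 and 64 in P1.5 +/+, and 156 and 105 in P1.5 GFP/GFP, or 0.0871 to 0.537 RPM at E18.5 and 3.29 to 13.8 RPM at P1.5. Every P1.5 library was above every E18.5 library. In +/+ lungs the log2 fold change from E18.5 to P1.5 was 5.49 (SE 0.84, 95% interval 3.54 to 7.44, limma adjusted p = 0.0748). Summed reads per total gave a 52.6-fold ratio (95% counting interval 29.0 to 106.3). The change was 7.30 within replicate 1 and 3.68 within replicate 2. Without P1.5 +/+ replicate 2 it was 6.52 and passed the threshold (limma adjusted p = 0.0176), and without replicate 1 it was 4.46 (limma adjusted p = 0.123). With a pseudocount of 1 RPKM, well above the E18.5 level, it was 1.10. In GFP/GFP lungs *Bpifa1* rose by 3.78 (SE 0.84, limma adjusted p = 0.04997), with a ratio of summed reads of 12.3 (8.23 to 19.0). That call was lost without any one of the 4 libraries, with limma adjusted p between 0.0820 and 0.233, and in a fit with a filter of 0.5 RPKM or with quantile normalization (0.0622 and 0.0542). With the replicate number as a block it was 0.0663. Between genotypes the libraries overlapped at both stages, with −0.45 at P1.5 (SE 0.84, 95% interval −2.41 to 1.5) and 1.26 at E18.5 (SE 0.84). The P1.5 value turned to 0.58 without +/+ replicate 1.

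Other BPI fold genes in lung behaved in part like *Bpifa1*. Of 16 family members 5 were tested. *Bpifb1*, another airway mucosal protein, rose by 2.54 from E18.5 to P1.5 in GFP/GFP lungs (SE 0.52, limma adjusted p = 0.0461) and *Bpifb5* by 2.21 (SE 0.47, limma adjusted p = 0.0471), while *Pltp* and *Lbp* were not called. In +/+ lungs 0 of the 5 were called, and *Bpifb1* stood at 1.86 and 4.27 RPM at E18.5 and at 11.7 and 12.5 RPM at P1.5. Between genotypes 0 of the 5 were called at either stage. The calls in GFP/GFP lungs fell to 0 without E18.5 GFP/GFP replicate 1 and without either P1.5 GFP/GFP library, and also with a replicate block, with voom and without the filter. With a pseudocount of 1 RPKM or a filter at 0.5 RPKM 1 of them was left. Among P1.5 libraries the level of *Bpifa1* followed the sum of club cell markers, from 24083 RPM in +/+ replicate 1 down to 10719 RPM in +/+ replicate 2. The neutrophil sum, the upper airway secretory sum (mostly *Msln*) and *Pglyrp1* had the same order. By mean log2 RPKM the club cell order differed, with 5.14 in GFP/GFP replicate 2 and 5.19 in +/+ replicate 2. At E18.5 *Bpifa1* did not follow the club cell sum, since GFP/GFP replicate 1 had the most *Bpifa1* reads (20) with the lowest club cell sum. The part of airway content in these differences was not tested.

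**Figure D4:**
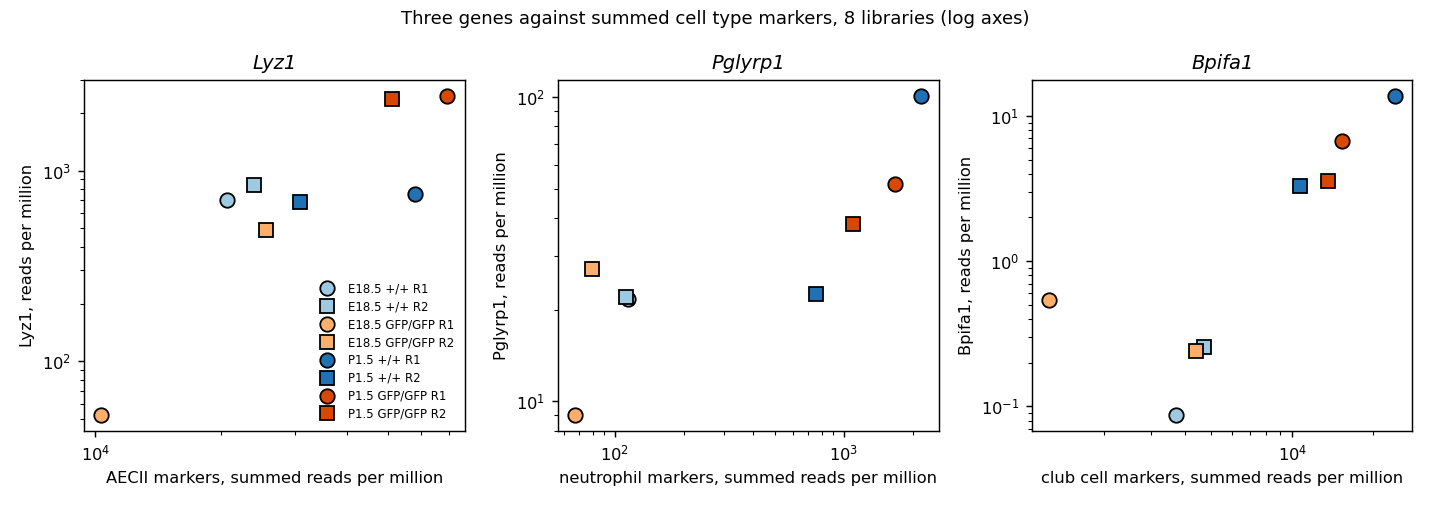
*Lyz1*, *Pglyrp1* and *Bpifa1* in RPM (vertical, log axis) against the summed RPM of AECII, neutrophil and club cell markers (horizontal, log axis), with 1 point per library, coloured by group (circle, replicate 1; square, replicate 2). The P1.5 GFP/GFP points of *Lyz1* (2474 and 2390 RPM) lie above P1.5 +/+ replicate 1. The AECII sum of that library, 58071 RPM, lies between those of the P1.5 GFP/GFP libraries and is mostly *Sftpc* (53718 RPM). The mean log2 RPKM of the 11 AECII markers was lower there, at 4.70 against 5.26 and 5.22. The P1.5 points of *Pglyrp1* rise with the neutrophil sum.

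*Pigr* was barely read in lung at these ages. It had 12 and 5 reads in E18.5 +/+, 3 and 3 in E18.5 GFP/GFP, 13 and 18 in P1.5 +/+, and 18 and 57 in P1.5 GFP/GFP, which is 1.95 RPM at most. Both E18.5 GFP/GFP libraries were at the limit of detection of 3 reads, and P1.5 GFP/GFP replicate 2 held the most. In summed reads per total, P1.5 stood 2.91-fold above E18.5 in +/+ (95% counting interval 1.56 to 5.60) and 15.8-fold in GFP/GFP (6.95 to 44.6). At P1.5 GFP/GFP stood 1.90-fold above +/+ (1.23 to 2.99), with libraries that overlapped, and at E18.5 the ratio was 0.348 (0.112 to 0.926). These intervals cover counting error only and not the spread between lungs. In a fit without the filter on low values *Pigr* passed the threshold for stage in GFP/GFP lungs (log2 fold change 3.76, SE 0.58, limma adjusted p = 0.0470) and in no other comparison. The J chain gene, listed as *Igj*, whose product joins the immunoglobulins that PIGR carries, had 0.349 RPM at most. The immunoglobulin chain genes listed (*Ighm*, *Igha*, *Igkc* and *Iglc1*) were not matched and were not analysed here. Of 10 genes of secretory immunoglobulin transport found, 2 were tested and 0 were called in any comparison.

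The wider group of secreted airway defence genes held 31 genes, of which 23 were tested. Between genotypes at P1.5, 14 were above 0 and 9 below, with 0 called and a median log2 fold change of 0.34 beside −0.20 over all genes. *Saa3*, an acute-phase apolipoprotein, differed most, with 22.5 and 3.96 RPM in +/+ and 421.6 and 1365 RPM in GFP/GFP (log2 fold change 6.33, SE 1.25, limma adjusted p = 0.217). *Lcn2*, which withholds iron from bacteria, stood at 126.7 and 70.7 RPM in +/+ and 493.8 and 831.7 RPM in GFP/GFP (2.76, SE 0.79, limma adjusted p = 0.324). *Slpi*, a protease inhibitor with WAP domains like those of WFDC2, stood at 86.9 and 15.2 RPM in +/+ and 203.3 and 253.1 RPM in GFP/GFP (2.64, SE 0.86, limma adjusted p = 0.347). At E18.5, 20 of the 23 were below 0, with 0 called and a median of −0.75 beside 0.09 over all genes, and in 11 both GFP/GFP libraries were lower, where 36% of all genes did not overlap in either direction. The summed level of the 31 genes there was 1502 RPM in GFP/GFP replicate 1, against 4808 RPM in replicate 2 and 4613 and 5426 RPM in +/+. From E18.5 to P1.5 in GFP/GFP lungs, 12 of the 23 were called, all higher, where 4.55% of all genes were called in either direction. These were *Saa3*, *Lcn2*, *Scgb1a1*, *S100a9*, *Slpi*, *Camp*, *Sftpd*, *Cxcl17*, *S100a8*, *Ltf*, *Hp* and *Sftpa1*. Among them *S100a8*, *S100a9*, *Camp* and *Ltf* were also on the list of neutrophil markers, and *Scgb1a1* and *Hp* on that of club cell markers. The median over the 23 was 3.09 beside −0.46. In +/+ lungs 0 were called, 20 were above 0, and the median was 0.98 beside −0.15. There 12 had both P1.5 libraries above both E18.5 libraries and 1 had both below. Over all genes 55.6% did not overlap in that comparison, in either direction. The difference between the genotypes was called in 0 of the 23. Those 12 calls fell to 0 without E18.5 GFP/GFP replicate 1 and without either P1.5 GFP/GFP library, and were 15 without E18.5 GFP/GFP replicate 2.

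Markers of lung cell types moved in part between the stages in GFP/GFP lungs, a comparison in which 4.55% of all genes were called in either direction. Of the tested markers, 0 of 11 were called for AECIIs, 1 of 11 for type I cells (*Aqp5*, 4.26), 2 of 10 for club cells, 2 of 11 for upper airway secretory cells, 1 of 7 for basal cells (*Aqp3*, 3.08) and 3 of 20 for macrophages and monocytes (*Marco*, *Cd14* and *Plac8*), all of them higher at P1.5. Lower at P1.5 were 1 of 12 ciliated cell markers (*Ccdc39*, −3.17) and 1 of 8 cartilage markers (*Sox9*, −2.52), and 0 of 7 oesophagus and thymus markers were called. In the other 4 comparisons *Ngp* was the only marker called.

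The genes whose log2 RPKM over the 8 libraries were most like each of the 6 were taken from 9421 genes whose mean was 0.5 RPKM or more (9422 for *Pigr*), as a description without a test. For *Lyz1* they were *Cdkn2b* (Pearson r = 0.99), *Gipc2* and *Chi3l1*, and for *Lyz2* they were *Gipc2* (0.98), *Spock2* and *Emb*. For *Pglyrp1* they were *Rps19* (0.99), *Tmem102* and *Cldn3*, and for *Bpifa1* they were *Rpp25* (0.99), *Camp* and *Ear6*. For *Reg3g* they were *Tsku* (0.97), *Gapdh* and *Rhof*, and for *Pigr* they were *3110003A17Rik* (0.98), *Cyr61* and *Cxcr2*. Among the 6 themselves *Lyz1* and *Lyz2* were most alike (r = 0.96) and *Bpifa1* and *Reg3g* least (r = −0.62). The choice of genes depended on the measure: of the 3 genes for each, Spearman's rho also placed 2 for *Reg3g*, 1 each for *Lyz2* and *Bpifa1*, and 0 for *Lyz1*, *Pglyrp1* and *Pigr* among its top 3. All points share the same 8 libraries, and the lysozymes may share reads.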

How the data were processed

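Total lung RNA was made into directional libraries (NEBNext Ultra) and sequenced on a HiSeq2500 or GAIIx. The sequencer of each library, and the strand and multiple-mapping settings of the counting, are not given in the sources used here. The authors trimmed the reads with Trim Galore (0.4.0), mapped them to mm10 with TopHat2 (2.1.1) and deposited log2 RPKM per gene from SeqMonk. Tested on the values, kilobases are the whole gene span and a gene without reads is entered as 0.9 read. Reads were recovered as whole multiples of each library's step, with 99.86% to 99.96% of values within 0.02 of a whole number.

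The log2 RPKM of the 15627 genes (of 25965) whose mean reached 0.05 RPKM entered limma (version 3.58.1, under R 4.3.3) as deposited and without a pseudocount. Each of the 4 groups had its own mean, which left 4 residual degrees of freedom, and the prior variance followed a trend. P-values are two-sided and Benjamini-Hochberg adjusted over all genes. Folds are on the log2 RPKM scale. The fit was tested on simulated data. The 6 genes were given by name, and they and the 17 gene lists were chosen with earlier results of these data known. List genes named are those called, otherwise up to 3 with the largest change; markers named beside a library were chosen after their values were seen. Of 219 list symbols 214 were found, 12 under an older symbol. Sequences and motifs come from RefSeq windows (GRCm38.p6, all 6 genes matched) and GENCODE M21 transcripts, aligned with Biopython 1.88. Python 3.11.15 was used. Alternatives were pseudocounts of 0.1 and 1 RPKM, a filter at 0.5 RPKM, none at all, quantile normalization, centring on the median, a replicate block, voom on recovered reads, the 4 libraries of a comparison alone, each library left out, and Spearman's rho in place of Pearson's r for likeness. Scaling to AECII markers was added after seeing the data. Intervals on reads cover counting error only.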

Additional observations from a re-analysis of the deposited data

Results flagged for a closer look

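For *Lyz1* the genotypes differed in opposite directions at the 2 stages: both GFP/GFP libraries were below both +/+ libraries at E18.5 and above them at P1.5. The P1.5 effect minus the E18.5 effect was 4.03 on the log2 scale, and limma's test of that difference gave an adjusted p = 0.337. For *Lyz2* the arrangement was the same, with a difference of 2.27 and a limma adjusted p = 0.475. Both values rest in part on E18.5 GFP/GFP replicate 1. Without it they were 2.41 and 1.16. Of all genes tested, 36% had groups that did not overlap at E18.5 and 39.4% at P1.5, in either direction. How many did so in opposite directions at the 2 stages was not counted.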

How the results depend on the processing

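Between genotypes, 0 of the 6 genes were called under any alternative. For stage in GFP/GFP lungs 2 were called. *Lyz2* was not, though its limma adjusted p fell to 0.0244 under the alternatives other than leaving out 1 library. The count was 1 with a pseudocount of 0.1 RPKM (*Lyz1*) and 1 without the filter (*Pigr*), and 0 with a pseudocount of 1 RPKM, quantile normalization, a replicate block or voom. Leaving out 1 library gave 0 to 2 for stage in either genotype and 0 to 1 for the difference of the genotype effects. Directions turned for values near 0: *Lyz1* for stage in +/+ lungs was 0.17 with median centring and 0.13 relative to AECII markers, *Lyz2* there was −0.068 with quantile normalization, *Pglyrp1* was 0.095 for genotype at P1.5 with median centring and −0.36 for the difference of effects relative to AECII markers, and *Reg3g* for stage in GFP/GFP lungs was 0.60 with median centring. With 1 library left out, *Bpifa1* for genotype at P1.5 ran from −1.49 to 0.58, *Lyz1* for stage in +/+ lungs from −0.22 to 0.0285 and *Lyz2* from −0.11 to 0.77. *Pglyrp1* ran from −1.19 to 0.98 for genotype at P1.5, from −1.28 to 0.31 at E18.5 and from −0.70 to 1.46 for their difference, and *Reg3g* from −1.08 to 0.16 at E18.5 and from −0.70 to 0.54 for stage in GFP/GFP lungs. Median centring moved the libraries by −0.48 to 0.51 on the log2 scale. The causes were not tested.

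Counts over all genes moved more. For genotype at E18.5 (3 genes) they were 6 with a pseudocount of 0.1, 22 without the filter, 1 with a filter of 0.5 RPKM, 1 relative to AECII markers, 1 with the 4 libraries alone, 0 with median centring, quantile normalization, a replicate block or voom, and 0 to 1 with 1 library left out. For genotype at P1.5 (2 genes) they were 11 and 5 with pseudocounts of 0.1 and 1, 21 without the filter, 5 relative to AECII markers, 0 with median centring, quantile normalization, a replicate block, voom or the 4 libraries alone, and 1 to 24 with 1 library left out. For stage in +/+ lungs (9 genes, 4 higher) they were 16 and 17 with the pseudocounts, 35 without the filter, 52 with a filter of 0.5 RPKM, 5 with median centring, 49 with quantile normalization (36 higher), 25 relative to AECII markers (20 higher), 0 with a replicate block, voom or the 4 libraries alone, and 0 to 2166 with 1 library left out. For stage in GFP/GFP lungs (711 genes, 252 higher) they were 237 with a pseudocount of 1, 349 without the filter, 1279 with median centring (849 higher), 706 with quantile normalization (377 higher), 125 with a replicate block, 129 with voom, 2142 relative to AECII markers (278 higher), 3036 with the 4 libraries alone, and 0 to 2449 with 1 library left out. The difference of effects gave 0 to 2.

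The replicate numbers are shared by the groups, but paired deviations correlated weakly (r = 0.23 at E18.5 and 0.21 at P1.5 between genotypes, and −0.29 to 0.08 otherwise), and the labels tie the numbers to no animal or litter, so the samples were not treated as pairs, although the number goes with sex in every group. With the replicate block *Lyz1* for stage in GFP/GFP lungs had a limma adjusted p of 0.0642 and *Bpifa1* of 0.0663. With 2 libraries a group, the precision is set by their number, and for *Pigr* and E18.5 *Bpifa1* also by depth.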
